A study of Drosophila melanogaster with 2 samples.

Results

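HmgZ, HmgD, Dsp1 and Ssrp are the fly genes of 4 chromatin proteins with HMG boxes, out of 13945 protein-coding genes annotated on the main chromosome arms. The genes were named in a list, and the list was selected on measured values as well as on function. A peak near HmgZ was already known to be among the strongest of these data. The signal values and ranks of the members therefore describe them and support no test. The data came from chromatin of whole Drosophila melanogaster embryos, male and female pooled, aged 6 to 24 hours according to the source name. All embryos belonged to 1 transgenic line that stably carries the CG6683 protein with GFP (green fluorescent protein) fused to its C-terminus, and no promoter of the transgene is given in the sources used here. The fusion protein was pulled down with an antibody against GFP after sonication to fragments of 200 to 800 bp, and the bound DNA was sequenced (ChIP-seq). There was 1 group of 2 biological replicates, numbered 2 and 3, with no group of another genotype, and whole embryos do not separate cell types.

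HMG boxes are small DNA-binding domains that insert into the minor groove and bend DNA sharply. HmgD and HmgZ are closely related, abundant non-histone proteins with a single HMG box and little sequence preference, and HmgD is a major component of early embryonic chromatin before linker histone H1 accumulates. Dsp1 (Dorsal switch protein), with a pair of HMG boxes, acts as a co-repressor with Dorsal and takes part in recruiting Polycomb group proteins. Ssrp is the HMG-box subunit of FACT, the histone chaperone that it forms with dre4 (the fly Spt16) and that handles nucleosomes during transcription and replication.

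Peaks are described through 4 lists on the dm6 genome: the optimal list, which the authors thresholded for reproducibility between replicates, the list of pooled candidates, and a candidate list for each replicate. On the main arms these held 2964, 29984, 29979 and 30000 peaks, and the 2964 optimal peaks were exactly the pooled candidates of highest signal. Each peak carries a signal value given by the authors, and its scale differs between lists, so it is used here to rank peaks within a list (rank 1 is the strongest). It ran between 171 and 3257 in the optimal list, with a median of 261. The weakest optimal peak had 170.6381 (rank 2964) and the next candidate below it 170.6229 (rank 2965). Read depth is unknown because the lists hold no counts. Replicate numbers below are those of the dm6 lists. Compared with the dm3 lists without converting coordinates, 6565 intervals of the replicate 2 list had the same start and end in the list numbered 3 and 0 in the list numbered 2, and 6080 intervals of the replicate 3 list were found in the list numbered 2 and 1 in the list numbered 3. The replicate numbers therefore go opposite ways on the 2 builds, and which is right was not tested. At CG6683 itself (3L 8513874 to 8514921) the lists held 10 pooled candidates within 5 kb, of which 1 was optimal, with a signal value of 178 and rank 2765.

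In these data 3 members, HmgZ, HmgD and Dsp1, had an optimal peak in the gene or within 5 kb, and Ssrp had no candidate of any kind there. Among all protein-coding genes 36.2% had an optimal peak in the same window and 27.4% had no pooled candidate, so neither state is rare. A summit within 500 bp of a transcription start was found for 3 members in the pooled candidate list, against 50.5% of all genes. With the optimal list 1 member, HmgZ, met that rule, against 13.3% of all genes. In total the 4 genes accounted for 38 distinct pooled candidates and 6 distinct optimal peaks, 5 at the HmgZ and HmgD locus and 1 at Dsp1. All 6 optimal summits lay in introns of a member or of its neighbour.

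HmgZ (FBgn0010228) and HmgD (FBgn0004362) lie on arm 2R in opposite orientation and overlap by 6404 bp. HmgZ runs leftward between 21697488 and 21707861, with 4 transcripts and 3 starts, and HmgD runs rightward between 21701458 and 21716727, also with 4 transcripts and 3 starts. Most of the overlap holds no exon of either gene, and the coding exons of both lie outside it. A summit in the overlap therefore belongs to the windows of both genes, and the 5 optimal peaks were shared by them and cannot be assigned to one or the other from position alone. Offsets below are from the nearest start of the gene named, with negative values upstream of it.

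The strongest peak of the locus spanned 21703079 to 21703706, with its summit at 21703401 in an intron of 2 of the 4 HmgZ transcripts and of 1 of the 4 HmgD transcripts. Its signal value was 1429.6 in the pooled list, 517 in the list of replicate 2 and 930.4 in that of replicate 3. The corresponding ranks were 21, 43 and 16, so it was near the top of every list. The replicate summits lay 18 bp and 4 bp from the pooled one. The summit was at -571 bp from the innermost HmgZ start, the one that begins 2 of its transcripts, and the near edge of the interval was 249 bp from that start. Beyond that start on the same side, the first HmgD start was 1943 bp from the summit. The same interval was listed a second time with a weaker summit at 21703625, which had a signal value of 135 (rank 4299) and was not optimal, with 179 (rank 596) in replicate 2 and 256 (rank 626) in replicate 3.

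The only optimal summit within 500 bp of a start of any member lay at 21704737, at -236 bp from the middle HmgZ start, in the interval 21704483 to 21704898. That start is 18 bp inside the interval. The signal value was 367 (rank 784) in the pooled list, 273 (rank 231) in replicate 2 and 82.5 (rank 4332) in replicate 3. The peak was thus among the 2964 strongest of replicate 2 and not of replicate 3. In replicate 3 the interval also overlapped a stronger candidate closer to the start, at -32 bp, with a signal value of 102 (rank 3108), which was again outside the 2964 strongest. The call at the HmgZ start depended on this 1 peak: with the 2964 strongest peaks of replicate 3 in place of the optimal list 0 members had a summit at a start, and with those of replicate 2 HmgZ alone had one.

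**Figure D1:**
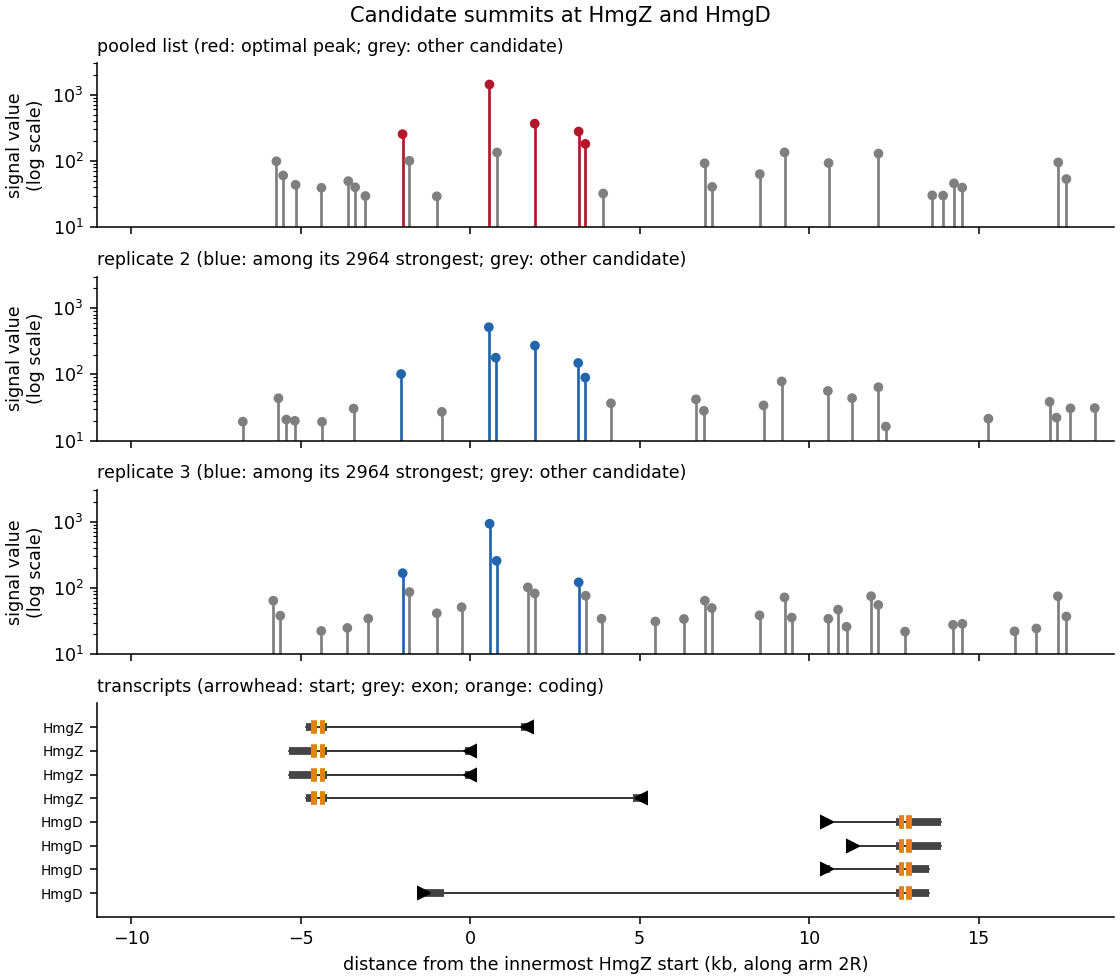
Candidate summits at HmgZ and HmgD by distance from the innermost HmgZ start (kb), with the signal value on a log scale in the pooled list and in both replicate lists, above the annotated transcripts. The tallest line, at rank 21 in the pooled list, stands upstream of that start in all 3 lists, and the 5 optimal peaks (red) fall within 5393 bp in the region where the 2 genes overlap or just outside it.

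The remaining optimal peaks of the locus flanked these. One at 21700728 to 21700898 (summit 21700838) lay in an intron of all 4 HmgZ transcripts and at -620 bp from the first HmgD start, which made it the optimal peak closest to any HmgD start. Its signal value was 254 (rank 1562) in the pooled list, 101 (rank 2048) in replicate 2 and 167 (rank 1358) in replicate 3. It was inside the 2964 strongest of both replicates. The other 2 were neighbours with overlapping intervals between the middle and outer HmgZ starts. The summit at 21706032 (-1531 bp) had a signal value of 279 (rank 1333) in the pooled list, 149 (rank 880) in replicate 2 and 121 (rank 2350) in replicate 3. The summit at 21706231 (1630 bp inside the gene from the outer start) had 181 (rank 2703), 89.7 (rank 2604) and 76.1 (rank 4927) in the same order of lists. Of this pair the first stayed among the strongest in both replicates, and the second did so in replicate 2 only.

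At the starts of HmgD no candidate reached the optimal list. The pooled list held 3 summits there. One at -419 bp from the first start had a signal value of 101 (rank 6711), one 389 bp inside it had 29.3 (rank 29341), and one 49 bp inside the middle start had 93.1 (rank 7512). The list of replicate 2 had 2 candidates at HmgD starts, of 56.3 (rank 5801) and 43.9 (rank 8653), and that of replicate 3 had 5, between 25.9 and 86.6, the best at rank 4006. In none of the lists did a summit at an HmgD start lie among the 2964 strongest. Around the HmgD coding end the candidates were weak as well, with 30.3 (rank 28536) in the 3′ UTR and between 30.0 and 95.3 in the 5 kb beyond the gene, where the starts of CG30398, Tango11 and LBR are the nearest. The strongest candidates within HmgD outside the optimal cluster were 135 (rank 4273), at -494 bp from a start of the nested gene CG30403, and 129 (rank 4582), at 741 bp from the HmgD start closest to its coding exons.

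The clustering of optimal peaks at HmgZ and HmgD was compared with the rest of the genome. Having 5 or more optimal summits in the gene or within 5 kb was met by 95 of all protein-coding genes, 0.681%. Long genes meet it more often: among genes of 0.5 to 2 times the length of HmgZ (10374 bp) the share was 1.04% (25 of 2401), and among those of like length to HmgD (15270 bp) 2.11% (37 of 1755). The 5 summits at HmgZ and HmgD spanned 5393 bp. Of the 2940 runs of 5 consecutive optimal summits on an arm, 9 (0.306%) were as close or closer, at 7 separate loci including this one. Both the number 5 and the span were taken from this locus itself, so these shares describe it and test nothing. The summits at 21706032 and 21706231, counted separately here, have overlapping intervals. Ordering the 10130 genes with a pooled candidate by their strongest one put HmgZ and HmgD at position 67, which corresponds to 0.480% of all genes, and Dsp1 at position 751 (5.39%). The median of the strongest candidate over those genes was 170 (quartiles 103 and 306). They had a median of 6 candidates each, beside 20 for HmgZ, 28 for HmgD and 10 for Dsp1. The 20 of HmgZ are all among the 28 of HmgD. Neither these counts nor the positions were matched for gene length, and longer genes have wider windows.

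**Figure D2:**
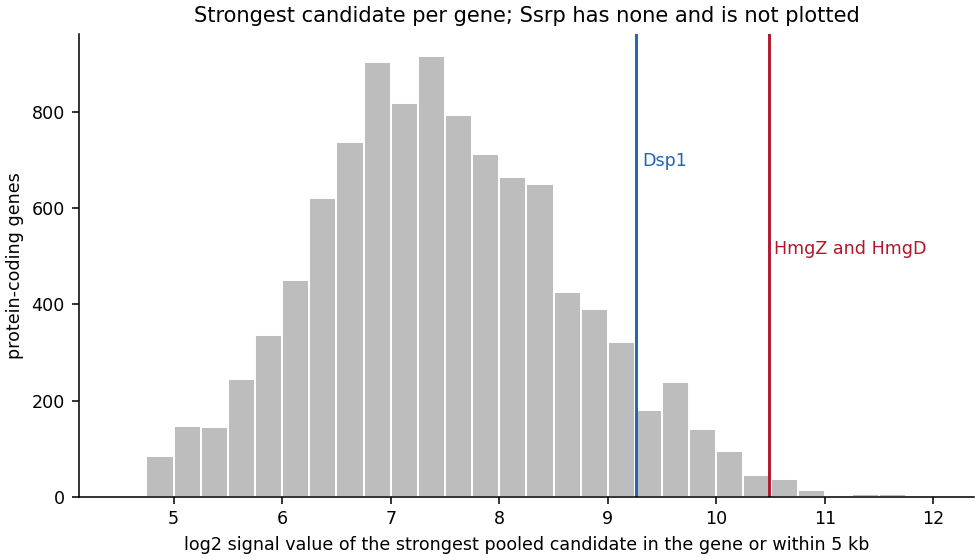
Vertical lines mark the log2 signal value of the strongest pooled candidate in the gene or within 5 kb for HmgZ and HmgD (red, 1 shared peak) and Dsp1 (blue), over grey bars for the number of protein-coding genes in each interval of that value. HmgZ and HmgD stand at position 67 and Dsp1 at position 751 of 10130 genes, while Ssrp has no candidate and is not drawn.

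Dsp1 (FBgn0278608) occupies X 16333612 to 16340624 on the forward strand, with 7 transcripts and 2 starts, and shares a divergent promoter with CG9921, whose outer start lies 12 bp away. Its single optimal peak, X 16332790 to 16333195, lay just beyond that promoter, with the summit at -632 bp from the first Dsp1 start. The same summit was 620 bp inside CG9921, in an intron of 1 of its 2 transcripts. The sequence within 100 bp of it is shown first because it carried the strongest signal at the gene, and the sequence around the strongest summit inside Dsp1, an intronic candidate that was not optimal, is shown beside it. Both are dm6, forward strand, from the Release 6 RefSeq genome, at chrX:16332880-16333080 and chrX:16335153-16335353. Capitals mark every match to 6 short words searched for on both strands, which are listed further on. In these windows the matches were AAAAA, in both, and AAATAT, in the second.
Dsp1 optimal peak: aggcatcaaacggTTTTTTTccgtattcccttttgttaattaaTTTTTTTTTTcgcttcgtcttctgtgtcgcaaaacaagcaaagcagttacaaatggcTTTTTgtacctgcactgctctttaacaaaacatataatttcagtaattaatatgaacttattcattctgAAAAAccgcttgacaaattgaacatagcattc
Dsp1 intronic candidate: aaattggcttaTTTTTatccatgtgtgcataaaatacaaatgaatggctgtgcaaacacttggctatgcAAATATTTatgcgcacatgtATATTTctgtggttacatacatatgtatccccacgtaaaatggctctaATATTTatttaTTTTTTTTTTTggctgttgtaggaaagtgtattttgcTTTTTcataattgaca

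The optimal peak at Dsp1 had a signal value of 615 (rank 274) in the pooled list, 182 (rank 578) in the list of replicate 2 and 445 (rank 199) in that of replicate 3. It was among the 2964 strongest of both replicates, and their summits lay 1 bp and 6 bp from the pooled one. A second summit listed with the same interval, at -427 bp from Dsp1, had a signal value of 109 (rank 5996) in the pooled list, 50.4 (rank 6953) in replicate 2 and 53.9 (rank 8545) in replicate 3. A summit 109 bp inside Dsp1, in its 5′ UTR or first intron depending on the transcript, had 91.9 (rank 7650), 74.2 (rank 3643, 106 bp inside) and 29.1 (rank 21309, 144 bp inside) in the same 3 lists. The start of Dsp1 itself thus carried lower-ranked candidates only, and the strong peak stood away from it on the CG9921 side. Inside the gene the strongest candidate was the intronic one printed above, at -931 bp from the second start, with 147 (rank 3769). The other candidates within 5 kb lay between 36.1 and 77.8. They included 2 in the 3′ UTR and 2 near the start of CG9919.

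**Figure D3:**
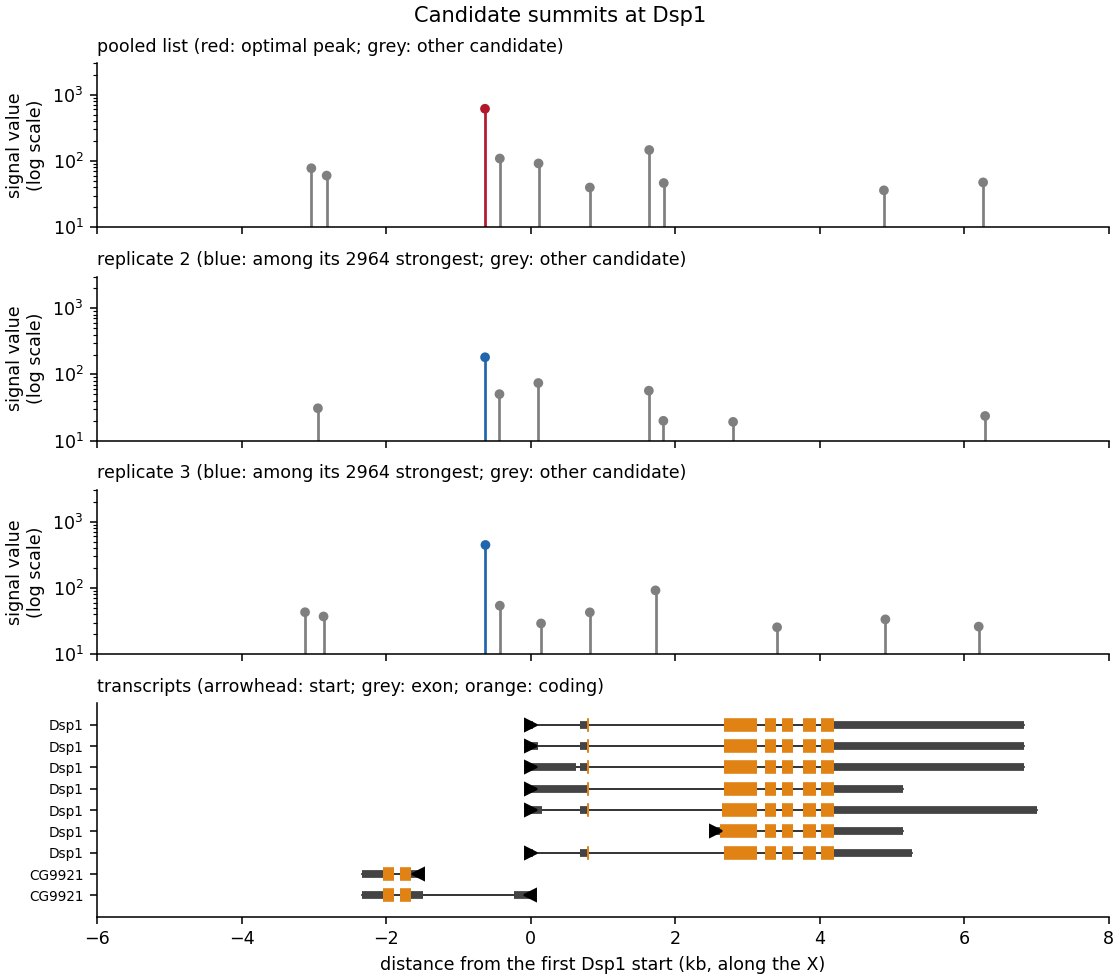
Candidate summits at Dsp1 by distance from its first start (kb), with the signal value on a log scale in the pooled list and both replicate lists, above the transcripts of Dsp1 and of CG9921. In each list 1 summit near -632 bp, within the CG9921 intron, stands above the rest, and the summits at the Dsp1 start are lower.

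Ssrp (FBgn0010278) is the exception among the members. It occupies 23806361 to 23809004 on arm 2R, reverse strand, with 1 transcript and 1 start, and had 0 candidates in the gene or within 5 kb in the pooled list, in replicate 2 and in replicate 3. The nearest pooled summit upstream of its start was 8029 bp away, with 9479 bp in replicate 2 and 8079 bp in replicate 3. On the other side the nearest was 59587 bp beyond the end of the gene in the pooled list, 59643 bp in replicate 2 and 58950 bp in replicate 3. The gene lay in a stretch without candidates of 70259 bp (pooled), 71765 bp (replicate 2) and 69672 bp (replicate 3), against median distances between neighbouring summits of 1090, 1127 and 1182 bp. Gaps as long made up 0.851% of all gaps in the pooled list (255), 0.784% in replicate 2 (235) and 0.700% in replicate 3 (210). These are shares of gaps by number. A long gap covers more sequence than a short one, so they do not give the share of genes that lie in such gaps, which was not counted. The stretch held 13, 14 and 13 whole protein-coding genes in the 3 lists, Ssrp among them. An empty window alone is common, since 24.4% of genes of like length to Ssrp also had no pooled candidate, and the lists do not tell a site without the protein from one that could not be mapped or called.

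The other subunit of FACT differed from Ssrp in having a peak. dre4 (3L) had an optimal summit at -215 bp with a signal value of 222 (rank 1929) in the pooled list, 125 (rank 1315) in replicate 2 and 92.5 (rank 3586) in replicate 3. Among the 14 genes of a list of FACT, histone chaperones and linker-histone-like or AT-hook proteins, 2 had an optimal summit at a start (14.3%, against 13.3% of all genes), dre4 and yem, which encodes a partner of the chaperone Hira, with 173 (rank 2899, -370 bp). Candidates of any strength at a start were present at 13 of the 14, and 6 had an optimal peak in the gene or within 5 kb, against 50.5% and 36.2% of all genes. The share with an optimal summit at a start was near that of all genes, while the share with any candidate there was higher. Neither was tested.

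Counts for genes related to the members by domain are read against all protein-coding genes, of which 50.5% had a pooled candidate at a start, 13.3% an optimal one there and 36.2% an optimal peak in the gene or within 5 kb. The last share was higher among longer genes, with 45.2% for genes of like length to HmgZ and 48.8% for those of like length to HmgD. None of the gene lists, here or in the paragraphs beside this one, was matched for length. Of 9 listed symbols of other non-sequence-specific HMG-box proteins, in chromatin, mitochondria or the germ line, 7 were found in the annotation. All 7 had a pooled candidate at a start and 0 had an optimal one, while 6 had an optimal peak in the gene or within 5 kb. Bap111 is among the 7 and is counted again in the list of remodelling complexes below. The highest signal values there were 269 for mael (a germ line piRNA factor), 251 for TFAM (the mitochondrial DNA packaging protein) and 245 for polybromo (a PBAP remodeller subunit), and the lowest was 44.5 for CG12104, which had no optimal peak. tHMG1 and tHMG2 share a peak at the edge of the optimal list, with 171 (rank 2961). Of 11 HMG-box transcription factors, which bind defined DNA sequences, 3 had an optimal summit at a start (27.3%, against 13.3% of all genes) and 7 had one in the gene or within 5 kb (against 36.2%). Sox14, an ecdysone-responsive factor, led with 1067 (rank 65, -259 bp), and 499.9 in replicate 2 and 597 in replicate 3. It was followed by bbx, with 927 (rank 99, -198 bp), and by Sox102F on chromosome 4 with 364 (rank 804, -305 bp), which had 226 in replicate 3 and no overlapping candidate in replicate 2. These are small lists, and neither their shares nor the difference between them was tested.

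The last 2 lists hold partners in function. Of 20 genes of nucleosome remodelling complexes, 4 had an optimal summit at a start (20.0%, against 13.3% of all genes) and 13 one in the gene or within 5 kb (against 36.2%). They were brm, the ATPase of the SWI/SNF-type complexes, with 828 (rank 140, -140 bp), Chd1 with 264 (rank 1456, -288 bp), and the BRM complex subunits Snr1 with 219 (rank 1975, -112 bp) and Bap60 with 197 (rank 2337, -107 bp). Of 11 partners of Dsp1 in Dorsal repression and at Polycomb response elements, 3 had an optimal summit at a start (27.3%, against 13.3% of all genes) and 7 one in the window of 5 kb (against 36.2%). These were ph-p, a Polycomb group gene, with 1519 (rank 17, -448 bp), the co-repressor gene gro with 548 (rank 351, -160 bp) and Trl, which encodes GAGA factor, with 332 (rank 958, 164 bp inside). Trl also had a stronger peak in its window, with 2071 (rank 4). dl, which encodes Dorsal itself, had no optimal summit at a start, with 82.7 for its best candidate there and 203 (rank 2235) for the strongest in its window. Pc, Psc and phol had none at a start either, but stronger peaks in their windows, with 1549 (rank 15), 1219 (rank 39) and 1002 (rank 80). In contrast, pho had no candidate in its window.

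The 6 optimal peaks at the members were compared between the replicates. All 6 overlapped a candidate in each replicate list, also with the rule that summits lie within 200 bp. Judged by the nearest replicate summit, 4 of the 6 were among the 2964 strongest of both replicates, against 65.3% of all optimal peaks. The other 2, both at HmgZ, were so in replicate 2 only, against 11.6% of all. None was strong in replicate 3 only (20.4% of all) or in neither (2.60%). The shares of all peaks used a looser rule, any of the 2964 strongest summits within 200 bp, so they are not like for like. By that rule the HmgZ peak at 21706231 also counts for both replicates, through the replicate 3 summit at 21706033 (rank 2350). The 2 peaks of highest signal, at HmgZ and at Dsp1, ranked higher in replicate 3 than in replicate 2, whereas 3 of the 4 weaker HmgZ peaks ranked higher in replicate 2. With 1 library per list, a difference in rank between replicates has no error estimate.

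**Figure D4:**
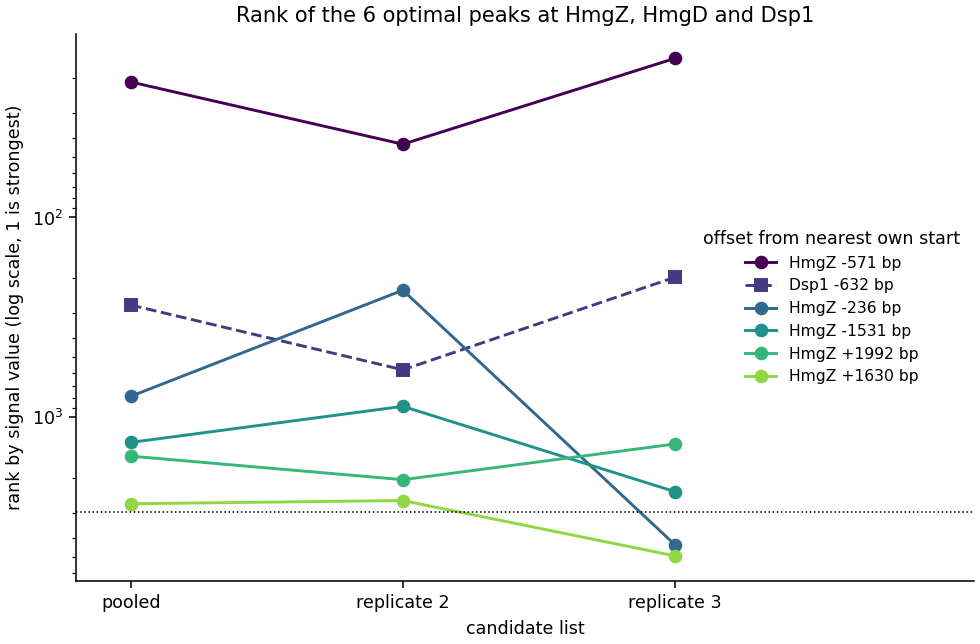
Rank by signal value (log scale, 1 is strongest) of the 6 optimal peaks at HmgZ, HmgD and Dsp1 in the pooled list and in the lists of replicates 2 and 3, with the dotted line at rank 2964. The HmgZ peak at -571 bp ranks 21, 43 and 16, and the peaks at -236 bp and 1630 bp cross the line in replicate 3.

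The DNA at the members' optimal summits was on average richer in G and C than over all optimal summits, which rested on 4 of the HmgZ peaks. GC content within 100 bp of the summit averaged 46.2% (SD 10.2, n = 6 peaks), against 35.5% (SD 7.7) over all 2964. In flanks centred 500 bp away the averages were 36.9% at the members and 43.5% over all, so the usual dip at the summit was reversed on average. GC content at the summit was above that of the flanks at 5 of the 6, against 21.7% of all optimal peaks (644). These 4, the weaker HmgZ peaks, had GC contents of 49.3%, 55.2%, 56.7% and 48.3% in order along the arm, beside flanks of 47.8%, 34.3%, 30.8% and 32.3%. Each was above at least 92.7% of all optimal summits. The last 2 windows overlap by 2 bp and share flanking sequence, so they are not independent. At the strongest HmgZ peak GC content was 35.3%, close to the mean of all optimal summits and below its flanks (44.3%), and at Dsp1 it was 32.3% beside 31.6%. The 32 other candidates at the members averaged 39.5% (SD 10.4), with 39.5% in their flanks as well.

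**Figure D5:**
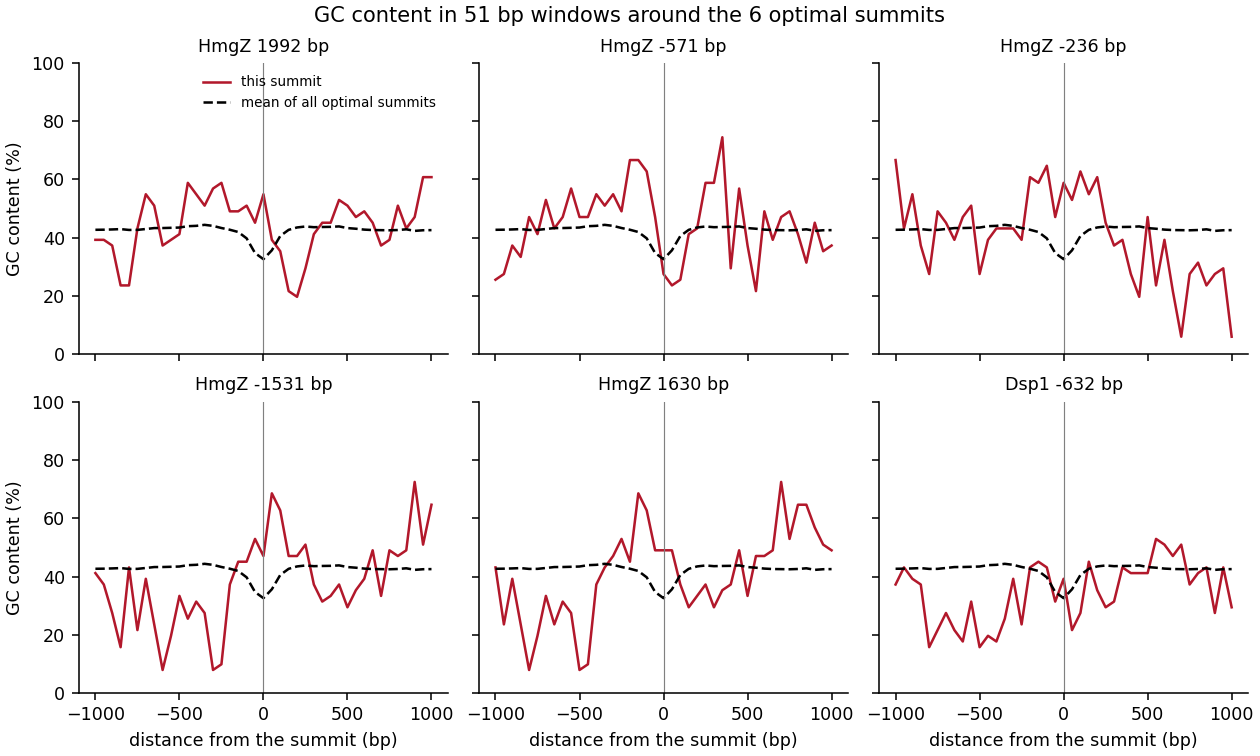
GC content (%) in 51 bp windows by distance from the summit (bp) at each of the 6 optimal peaks (red), labelled by the gene and offset, beside the mean of all optimal summits (dashed). The mean dips at the summit, as the peak at -571 bp does, while the other 4 HmgZ peaks lie above it there. The Dsp1 peak is above the mean at the summit itself (39.2% against 32.6%). It is below the mean 50 bp to either side (31.4% and 21.6%, against 34.7% and 35.6%).

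Words of DNA sequence were counted within 100 bp of the same summits, on both strands, a word counting once per window. A run of 5 A or T bases (AAAAA) was found at 4 of the 6 peaks, against 80.2% of all optimal peaks, and at 23 of the 32 other candidates. AAATAT was found at 1 of the 6, the strongest HmgZ peak, against 55.8% of all, and TATAAA, the core of the TATA box, at the same 1, against 38.4%. ACAGTG was found at 1, the HmgZ peak at -620 bp from HmgD, against 18.2%. The GAGA element (GAGAG), which GAGA factor binds, was found at 1, the HmgZ peak at -1531 bp, against 23.5%. TATCGATA, the element that Dref binds, was found at 0 of the 6 and at 0 of the 32 other candidates, against 3.00% of all. AAATAT and TATAAA can overlap each other and AAAAA by some of their letters. A match only says that the letters are there.

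Among 1896 optimal peaks that are the strongest of some protein-coding gene and have a candidate in both replicates, those with the most similar signal values in the 3 lists were identified, by the distance on the log2 scale. For the HmgZ peak they were the peaks at CG31145 (distance 0.05, with 1449.6 in the pooled list, 511 in replicate 2 and 955 in replicate 3), at Art3 (0.17) and at Chro (0.17). For the Dsp1 peak, similar ones were those at bin (distance 0.16, with 642 in the pooled list, 201 in replicate 2 and 438 in replicate 3) and Rh5 (0.18). Their summits lay at -1304 bp from bin and -1324 bp from Rh5. Peaks are named here by 1 gene each, but that at Art3 was shared by 6 genes. The peaks at Chro and bin were shared by 3 each, and that at Rh5 by 2. The likeness covers 3 values of 2 libraries and their pool, which are not independent of each other.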

How the data were processed

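Peak lists on dm6 were read as deposited, and a deposited note says that they were made with a control alignment. The authors' signal value per peak, whose normalization is not stated, served to rank peaks within a list. The −log10 q value deposited by the authors was the same for all optimal peaks and was not used. Neither the aligner nor the peak caller is given in the sources used here. Genes came from Ensembl release 115 (BDGP6.54) and sequence from the Release 6 RefSeq genome, both in dm6 coordinates, which are printed 1-based. Summits were set against starts (500 bp) and genes (5 kb), and GC content was taken within 100 bp. At the members, replicate values belong to the candidate with the nearest summit, a choice made after seeing the data. The members, lists and rules were chosen with earlier results of these data known, so no test was run and counts are read against the shares of all genes. Named were the members, genes nearest their peaks, up to 4 genes per list with the highest optimal signal at a start, 3 most similar peaks each (1 of those for Dsp1 is not reported here), and CG6683. Examples outside this rule (mael, TFAM, polybromo, CG12104, tHMG1, tHMG2, Bap111, dl, Pc, Psc, phol, pho and genes beside weaker candidates) were chosen after their values were seen. Alternatives were windows of 200 and 1000 bp, margins of 2 and 10 kb, single replicates, the upper 50% of peaks, other overlap rules and other backgrounds. The counting was checked on simulated data. Python 3.11.15, NumPy 2.4.6, pandas 2.3.3 and matplotlib 3.10.9 were used.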

Additional observations from a re-analysis of the deposited data

How the results depend on the processing

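Of 52 alternative values, 38 lay within the tolerance of the value reported (1.5 times for counts and shares, 1 SD of the replicate lists for ranks and offsets) and 14 moved beyond it. That SD comes from the same 2 replicate values that were judged, so for ranks and offsets the tally is no measure of stability. The count of members with an optimal summit at a start, 1, became 0 with a 200 bp window and 3 with 1000 bp (HmgZ, HmgD and Dsp1), and ran from 0 to 1 with single replicates. The count in the gene or within 5 kb was 3 under every margin, threshold and replicate alternative. With single replicates the strongest HmgZ peak ranked 16 to 43 at offsets of -575 to -553 bp, and the Dsp1 peak 199 to 578 at -631 to -626 bp. Within 200 bp of a start, HMG-box transcription factors with an optimal peak became 1 instead of 3, and the FACT and chaperone list 0 instead of 2. That list also had 0 with the upper 50% of peaks and 1 to 1 with single replicates, and the remodelling list had 2 instead of 4 with the upper 50%. Among genes with a pooled candidate at a start, 26.4% had an optimal one, against 13.3% of all genes. With reciprocal overlap of 50%, 5 of the 6 optimal peaks were matched in replicate 2 and 4 in replicate 3. No paired analysis was possible because there was 1 group. The depth is unknown, so weak candidates and absent ones cannot be given an error, and with 1 antibody and no untagged line analysed here, signal of the fusion protein and of the pull-down itself cannot be told apart.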
